A study of Mus musculus with 11 samples.

Results

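The genes described here handle vitamin A and its active form, retinoic acid, and were measured in fibroblasts of the mammary gland at 4 stages of tumour development. They are 9 of the 19938 genes measured: Rbp4, Stra6, Rdh10, Aldh1a1, Aldh1a2, Aldh1a3, Crabp1, Crabp2 and Rarb. The list was chosen by name after earlier results of these data were known, because Aldh1a2 was higher in advanced carcinoma than in carcinoma. Each of the 9 symbols was found on the array, each with 1 probe set, and none was lost to a filter.

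The data are 11 arrays of fibroblasts from female mice, each hybridised with RNA of 1 pooled cohort. Normal glands came from FVB/n mice of 8 weeks (2 arrays, D2 and D5). The 3 other stages came from MMTV-PyMT mice, in which a mammary tumour virus promoter drives the polyoma middle T oncogene in the mammary epithelium. They are hyperplasia at 4 weeks (3 arrays, D6, D7 and D12), carcinoma at 9 weeks (3 arrays, D3, D4 and D10) and advanced carcinoma at 12 weeks (3 arrays, D8, D9 and D11), which the labels call late carcinoma. The cells were sorted from fresh tissue as positive for CD140a (PDGFRα) and negative for the macrophage antigen of the Adgre1 gene. The sample labels add that they were EpCAM-negative, while the study's methods name an EpCAM stain only for a separate sort. Fibroblasts of carcinoma and advanced carcinoma together are called cancer-associated fibroblasts (CAFs, 6 arrays) and were compared with those of normal glands and hyperplasia (5 arrays). Age differed between the stages, so stage and age cannot be told apart.

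Retinol travels in blood bound to RBP4 and can enter cells through the receptor STRA6. Inside the cell RDH10 oxidises it to retinal, and the 3 ALDH1A enzymes oxidise retinal to retinoic acid. CRABP1 and CRABP2 bind retinoic acid in the cytoplasm, and CRABP2 is known to pass it to the nuclear receptors. The receptors, RARβ among them, bind DNA as pairs with RXR at repeats of a short half-site, and Rarb and Cyp26a1, which encodes an enzyme that degrades retinoic acid, are textbook targets of the hormone.

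Values are log2 expression, so a difference of 1 is a doubling, and levels were compared only within a gene. The median of the 19938 genes was 5.64, the arrays' own medians lay between 5.28 and 5.39, and no detection calls were used here, so it is not known whether the lowest values stand above background. Fibroblast markers were present. Dcn, a proteoglycan gene of fibroblasts, lay between 12.10 and 12.71 on all 11 arrays. Pdgfra, the gene of the sort's marker, lay between 9.21 and 11.35, lowest on carcinoma D4. A list of 13 fibroblast markers averaged 9.56 to 11.10 on CAF arrays and 11.01 to 11.38 on the others. All 13 changes in CAFs were below 0 (median -0.57), and 2, Pi16 and Cd34, were lower at an adjusted p under 0.05 in limma. A list of 15 luminal epithelial markers averaged 8.47 to 9.60 on CAF arrays and 6.07 to 7.65 on the others, and 14 of the 15 were higher in CAFs at an adjusted p under 0.05 in limma. A list of 12 macrophage markers averaged 6.09 to 8.04 on CAF arrays and 4.58 to 5.98 on the others, and 11 of the 12 were higher in CAFs. These calls included Epcam (change 2.16, adjusted p = 0.00149) and Adgre1 (change 2.32, adjusted p = 0.00719), the gene of the macrophage antigen sorted against. In each probe set normal D2 and advanced carcinoma D11 average to what the remaining 9 arrays average to, with a largest gap of 0.000144 in their sum, so these 2 arrays are not independent of the rest. The limma results of the 9 genes were therefore also computed without them and with a term for them. Marker, wider pathway and correlation results are given with all 11 arrays only.

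Across the 9 genes the stages differed in opposite directions. Among the 8 genes other than Aldh1a2, Crabp2 was higher in CAFs than in the fibroblasts of normal glands and hyperplasia, and Aldh1a1, Aldh1a3 and Rbp4 were lower, at an adjusted p under 0.05 in limma. Over all genes 12% were called higher and 12.8% lower in the same comparison. The median change of the 8 genes was -0.48, against -0.04 over all genes, with 3 changes above 0 and 5 below. Rarb, Rdh10, Stra6 and Crabp1 did not pass the threshold. Where the arrays of 2 groups did not overlap, the share of all genes separated in this way was counted only for advanced carcinoma against carcinoma. In the other comparisons nothing is read from such a separation. Because the arrays hold RNA of many cells, fewer cells of a type and less RNA per cell cannot be told apart in any of these values.

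**Figure D1:**
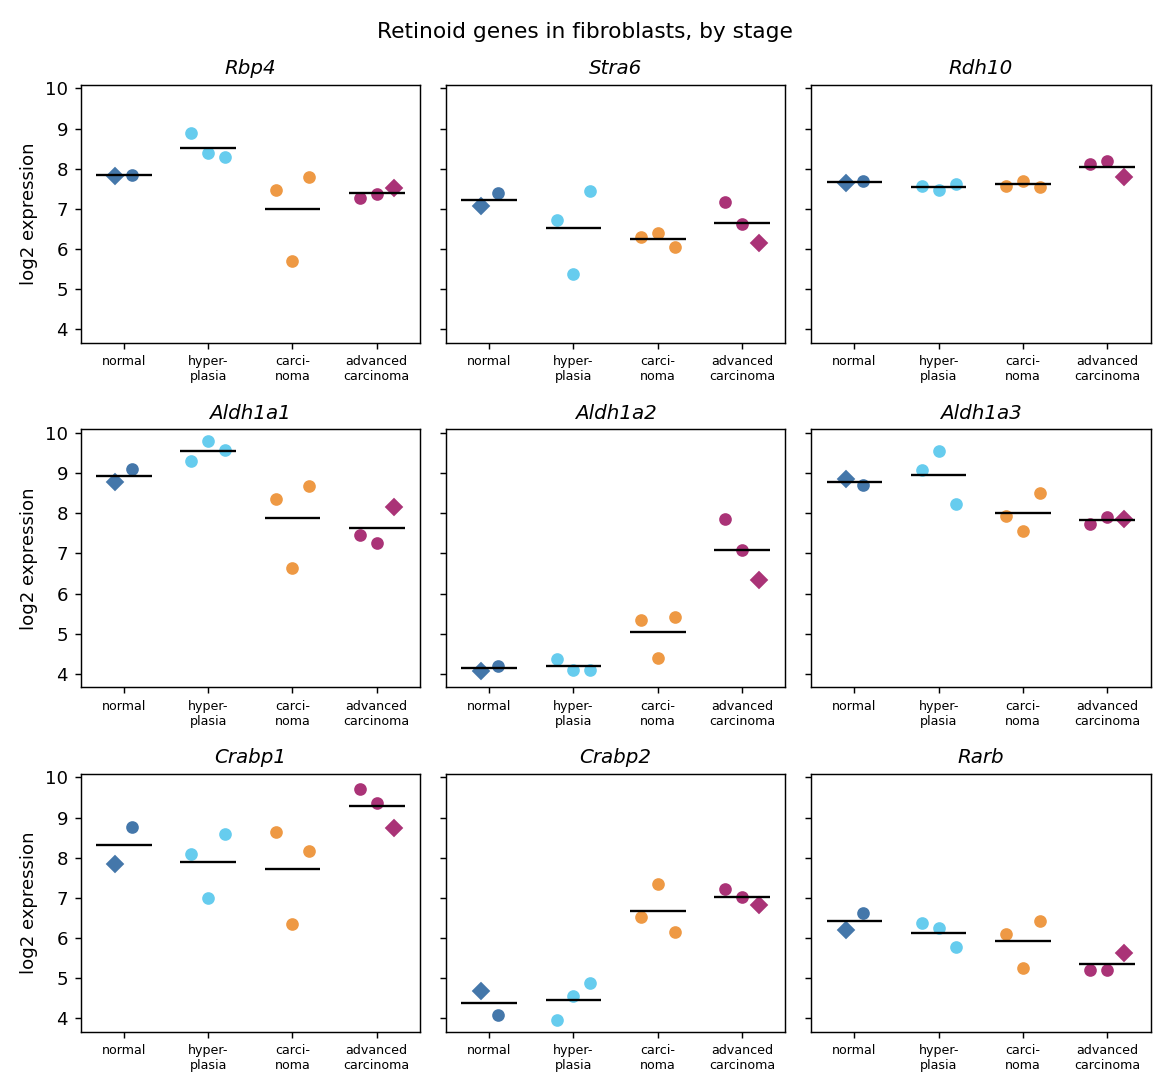
Log2 expression of each of the 9 retinoid genes (vertical axis, the same range in every panel) on 11 arrays grouped by stage (horizontal axis); each point is 1 array, the line is the stage mean, and diamonds mark the tied arrays D2 and D11. Crabp2 lies between 6.16 and 7.34 on the CAF arrays, above every array of normal glands and hyperplasia, and Aldh1a2 lies between 6.34 and 7.85 in advanced carcinoma.

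Rbp4 and Stra6 serve the supply of retinol. Rbp4, the plasma carrier of retinol, had 7.83 and 7.85 in normal glands, 8.88, 8.39 and 8.30 in hyperplasia, 7.48, 5.71 and 7.80 in carcinoma and, at the advanced stage, 7.27, 7.38 and 7.52. Every CAF array was below every array of normal glands and hyperplasia, and carcinoma D4 lay far below the rest. Rbp4 averaged 7.19 ± 0.75 in CAFs and 8.25 ± 0.44 in normal glands and hyperplasia (SD, n = 6 and 5), a change of -1.06 ± 0.34 (SE, adjusted p = 0.0446 in limma). The call was close to the threshold: it held in 3 of the 11 fits that each left out 1 array, and in the other 8, those without D3, D5, D6, D7, D8, D9, D11 or D12, the adjusted p lay between 0.0514 and 0.106. It was also lost without both tied arrays, where the change was -1.23 (adjusted p = 0.0613 in limma), with a term for them (adjusted p = 0.0633), and with the unmoderated contrasts of the study's methods (adjusted p = 0.0769).

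Stra6, the membrane receptor for the carrier, had 7.06 and 7.39 in normal glands, 6.72, 5.37 and 7.46 in hyperplasia, 6.30, 6.40 and 6.06 in carcinoma and, at the advanced stage, 7.17, 6.62 and 6.16. The 3 carcinoma arrays lay below both normal arrays, and the hyperplasia arrays spread over more than the distance between any 2 stage means. The change in CAFs was -0.35 ± 0.35 (SE, adjusted p = 0.494 in limma). No comparison of stages called Stra6.

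Rdh10 encodes the dehydrogenase that makes retinal from retinol. It had 7.65 and 7.69 in normal glands, 7.58, 7.47 and 7.62 in hyperplasia, 7.58, 7.71 and 7.55 in carcinoma and, at the advanced stage, 8.13, 8.20 and 7.80. The first 3 stages shared a narrow range and the 3 advanced arrays lay above all of it. Rdh10 averaged 8.04 ± 0.22 in advanced carcinoma and 7.56 ± 0.08 in hyperplasia (SD, n = 3 each), a change of 0.48 ± 0.10 (SE, adjusted p = 0.0171 in limma). The adjusted p was 0.0651 without hyperplasia D7, 0.0753 without advanced carcinoma D8 and 0.0734 without D9. Against normal glands the change was 0.37 ± 0.12 (adjusted p = 0.100 in limma), and in CAFs as a whole 0.22 ± 0.12 (adjusted p = 0.193).

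The 3 retinal dehydrogenases, which make retinoic acid, did not follow one pattern. Aldh1a1 had 8.77 and 9.10 in normal glands, 9.29, 9.79 and 9.57 in hyperplasia, 8.35, 6.64 and 8.68 in carcinoma and, at the advanced stage, 7.47, 7.27 and 8.15. All 6 CAF arrays were below all 5 others. Aldh1a1 averaged 7.76 ± 0.76 in CAFs and 9.31 ± 0.40 in normal glands and hyperplasia (SD, n = 6 and 5), a change of -1.55 ± 0.34 (SE, adjusted p = 0.00885 in limma), or 0.343 times the level. The call held in each of the 11 fits that left out 1 array, with adjusted p between 0.00338 and 0.0262, and in all 10 other alternatives.

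Aldh1a3 had 8.86 and 8.70 in normal glands, 9.08, 9.56 and 8.24 in hyperplasia, 7.93, 7.56 and 8.50 in carcinoma and, at the advanced stage, 7.72, 7.90 and 7.85. The groups overlapped only through hyperplasia D12 and carcinoma D10, and the 3 advanced arrays lay close together. The change in CAFs was -0.98 ± 0.22 (SE, adjusted p = 0.00951 in limma), from means of 7.91 ± 0.32 in CAFs and 8.89 ± 0.49 in normal glands and hyperplasia (SD, n = 6 and 5). This call too held in all 11 fits that left out 1 array and in the 10 other alternatives, with a highest adjusted p of 0.0364.

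Aldh1a2, the retinal dehydrogenase of embryonic mesenchyme, had 4.07 and 4.20 in normal glands, 4.38, 4.09 and 4.09 in hyperplasia, 5.35, 4.39 and 5.41 in carcinoma and, at the advanced stage, 7.85, 7.08 and 6.34. Normal glands and hyperplasia shared one low range, carcinoma D4 lay at its upper edge, carcinoma D3 and D10 lay clearly above it, and the 3 advanced arrays were above all the others. The stage means were 4.14 ± 0.09 for normal glands (SD, n = 2), 4.19 ± 0.16 for hyperplasia, 5.05 ± 0.57 for carcinoma and 7.09 ± 0.76 for the advanced stage (SD, n = 3 each). The first 2 means do not differ beyond their spread.

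Aldh1a2 was selected on its difference between advanced carcinoma and carcinoma. Comparisons that use the arrays of either stage are therefore given for this gene as a description only, with no test. The difference was 2.04 ± 0.37 (SE), or 4.11-fold, and the nearest arrays on the 2 sides were advanced carcinoma D11 at 6.34 and carcinoma D10 at 5.41. It ranged from 1.66 without advanced carcinoma D8 to 2.42 without D11, the tied array. Advanced carcinoma differed from normal glands by 2.95 ± 0.42 (SE), or 7.74-fold. The comparisons of carcinoma with the earlier stages share the carcinoma arrays with that choice, so they too are a description. Carcinoma differed from normal glands by 0.91 ± 0.42 (SE) and from hyperplasia by 0.86 ± 0.37 (SE).

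In the same description of advanced carcinoma against carcinoma, Crabp1 differed by 1.56 ± 0.62 (SE) and Rdh10 by 0.43 ± 0.10. Like Aldh1a2, both had all 3 advanced arrays above all 3 carcinoma arrays, which was the case for 6.48% of all genes. The other 6 genes overlapped between these stages, with differences between -0.58 for Rarb and 0.39 for Rbp4 and Stra6. No test is given for these, since the list was chosen on this contrast.

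Mesothelial cells and some dendritic cells are other known sources of Aldh1a2. The 8 mesothelial markers averaged 4.81 to 5.04 in advanced carcinoma and 4.92 to 5.03 in normal glands, and Msln, which defines the type, had 4.14, 4.06 and 4.10 in advanced carcinoma against 4.12 and 4.08 in normal glands. Wt1, another of them, had 4.99, 5.54 and 5.25 in advanced carcinoma against 4.94 and 4.73 in normal glands, with up to 5.65 in hyperplasia and 5.68 in carcinoma, so its 3 advanced arrays lay above both normal arrays and within the range of the other stages. None of the 8 was higher in CAFs and 1, Lrrn4, was lower (change -0.17). The 10 dendritic cell markers averaged 5.34 to 5.86 in advanced carcinoma and 5.60 to 6.21 in normal glands. Of these 10, Itgax was higher in CAFs (change 0.99, adjusted p = 0.0491 in limma), and Flt3, Zbtb46 and Ccr7 were lower.

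The macrophage list did move with the stage. It averaged 7.87, 8.04 and 6.33 on advanced carcinoma D8, D9 and D11, and 6.28, 7.62 and 6.09 on carcinoma D3, D4 and D10. Pearson's r of Aldh1a2 with the macrophage list was 0.74, and with the luminal list 0.67, over 11 arrays that share the 4 stages, given as a description. Aldh1a2 had its largest r in size with a list of 9 adipocyte markers, at -0.85. With the B cell marker list it was -0.73, and with the T and NK cell marker list -0.71. Of the 9 adipocyte markers, 5 were lower in CAFs and none was higher at an adjusted p under 0.05 in limma. Carcinoma D4, whose macrophage mean only D8 and D9 exceeded, had the lowest Aldh1a2 and also the lowest fibroblast mean (9.56) of the 6 CAF arrays. Array values have no true zero, so no marker can be given as absent, and the part of these cells in the Aldh1a2 values was not tested.

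**Figure D2:**
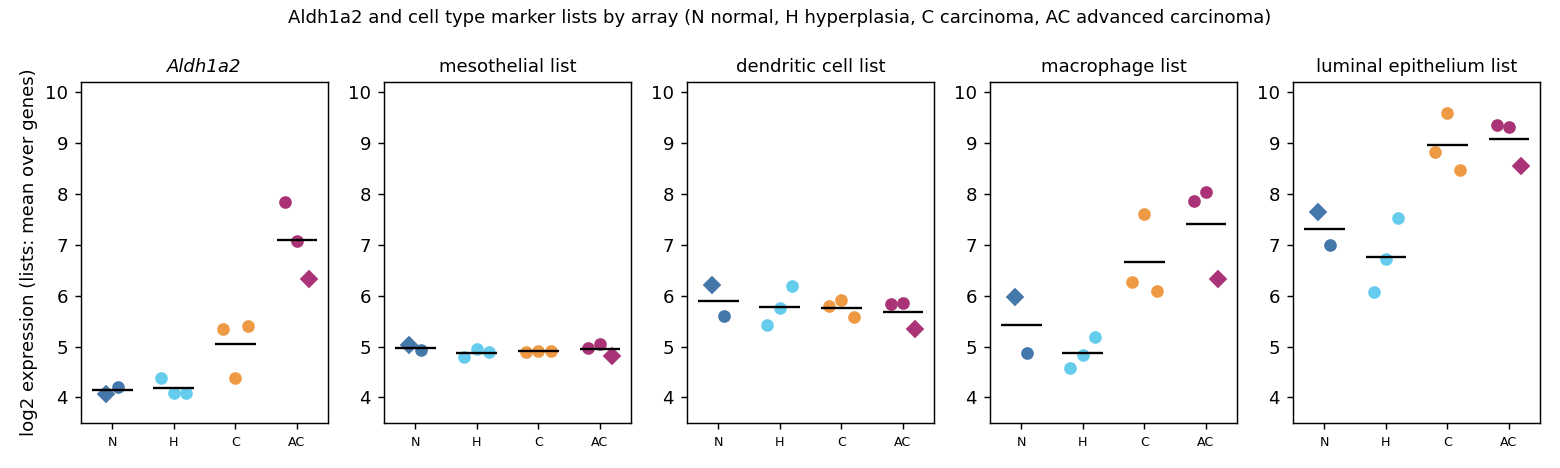
Log2 expression of Aldh1a2 (left panel) and the mean log2 expression of 4 cell type marker lists (other panels) on each array, by stage; points are arrays, lines are stage means and diamonds mark the tied arrays D2 and D11. The mesothelial list stays between 4.81 and 5.04 on all arrays, and the macrophage and luminal lists are higher on CAF arrays.

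The retinoic acid binding proteins differed from each other. Crabp2, the carrier to the nuclear receptors, had 4.68 and 4.08 in normal glands, 3.96, 4.55 and 4.89 in hyperplasia, 6.53, 7.34 and 6.16 in carcinoma and, at the advanced stage, 7.22, 7.02 and 6.82. The 6 CAF arrays formed one high group, more than 1 log2 unit above the highest array of the other stages. Crabp2 averaged 6.85 ± 0.44 in CAFs and 4.43 ± 0.40 in normal glands and hyperplasia (SD, n = 6 and 5), a change of 2.42 ± 0.23 (SE, adjusted p = 0.000175 in limma), or 5.34-fold. It was called in each of the 11 fits that left out 1 array, with adjusted p between 8.06e-05 and 0.000886, and in all 10 other alternatives.

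Crabp2 was also the gene most often called between single stages. It was 2.64 ± 0.36 higher in advanced carcinoma than in normal glands (SE, adjusted p = 0.00891 in limma), the only call among the 8 genes other than Aldh1a2, where 5.61% of all genes were called. Without normal D5 the adjusted p was 0.0907, and without both tied arrays it was 0.0766. In carcinoma it was 2.30 ± 0.36 higher than in normal glands (adjusted p = 0.0337 in limma), again the only call of the 8, where 0.938% of all genes were called. That call held in 4 of the 11 fits that left out 1 array, was lost without D2, D3, D5, D7, D8, D9 or D11 (adjusted p up to 0.357, without normal D5), and was lost with a term for the tied arrays (adjusted p = 0.113) and without them (adjusted p = 0.162).

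Against hyperplasia, Crabp2 was 2.21 ± 0.33 higher in carcinoma (SE, adjusted p = 0.0101 in limma), the only call of the 8 genes, where 9.25% of all genes were called. In advanced carcinoma against hyperplasia 4 of the 8 were called, where 14.5% of all genes were. Crabp2 was 2.55 ± 0.33 higher (adjusted p = 0.00378) and Rdh10 higher as given above, while Aldh1a1 had a change of -1.92 ± 0.47 (adjusted p = 0.0277) and Aldh1a3 of -1.14 ± 0.32 (adjusted p = 0.0451). The Crabp2 call stayed under every alternative and with every array left out. Aldh1a1 was lost without D6, D7, D8, D9 or D12 (adjusted p up to 0.109), and Aldh1a3 without D2, D3, D5, D6, D7, D8, D9 or D11 (adjusted p up to 0.141). Without both tied arrays the adjusted p was 0.0537 for Aldh1a1 and 0.121 for Aldh1a3.

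Crabp2 values followed the epithelial and macrophage markers across the arrays. Pearson's r of Crabp2 with the mean of the luminal list was 0.96, and with the macrophage list 0.91, over 11 arrays that share the 4 stages, given as a description. Carcinoma D4 had the highest Crabp2 (7.34), the highest luminal mean (9.60) and the lowest fibroblast mean (9.56) of the 11 arrays. Aldh1a1 ran the other way, with r of -0.89 with the luminal and -0.94 with the macrophage list, and Rbp4 had r of 0.93 with the fibroblast list. The part of these markers in the Crabp2, Aldh1a1, Aldh1a3 and Rbp4 results was not tested.

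Crabp1, the other cytoplasmic binding protein, had 7.85 and 8.77 in normal glands, 8.09, 6.99 and 8.60 in hyperplasia, 8.64, 6.36 and 8.17 in carcinoma and, at the advanced stage, 9.71, 9.37 and 8.75. The first 3 stages overlapped widely, and in advanced carcinoma only D11 fell within the range of another stage, below normal D5. The change in CAFs was 0.44 ± 0.55 (SE, adjusted p = 0.589 in limma) and in advanced carcinoma against normal glands 0.96 ± 0.69 (adjusted p = 0.455). No comparison called Crabp1.

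Rarb, the retinoic acid receptor gene that is itself a target of retinoic acid, had 6.20 and 6.63 in normal glands, 6.38, 6.25 and 5.78 in hyperplasia, 6.10, 5.25 and 6.42 in carcinoma and, at the advanced stage, 5.22, 5.20 and 5.62. The 3 advanced arrays were below every array of normal glands and hyperplasia, and the carcinoma arrays spanned both ranges. The change was -1.07 ± 0.33 in advanced carcinoma against normal glands (SE, adjusted p = 0.0934 in limma) and -0.61 ± 0.24 in CAFs (adjusted p = 0.0857), neither past the threshold. In CAFs it passed without carcinoma D10, where the change was -0.77, and with array weights, where it was -0.62.

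**Figure D3:**
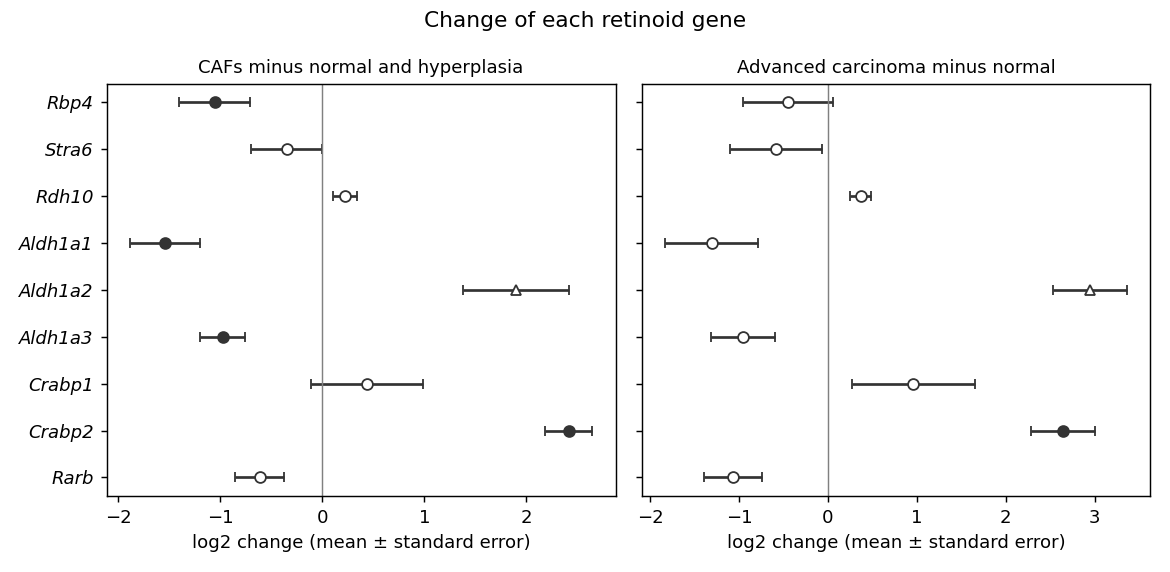
Log2 change (horizontal axis) of each of the 9 genes in CAFs against normal glands and hyperplasia (left) and in advanced carcinoma against normal glands (right); points are differences of means, bars 1 SE, filled points have an adjusted p under 0.05 in limma, open circles do not, and the triangle is Aldh1a2, for which no test is given. Crabp2 is filled on both sides (2.42 and 2.64), and Aldh1a1, Aldh1a3 and Rbp4 only on the left.

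Hyperplasia against normal glands gave no call among the 9 genes, with an adjusted p of 0.999 for each in limma. No gene of the 19938 was called either (0%), 841 had an unadjusted p under 0.05 in limma and 885 in the unmoderated contrasts of the study's methods, and none of the 9 was among those of limma. The changes ran from -0.71 ± 0.51 for Stra6 to 0.69 ± 0.51 for Rbp4 (SE). For Rbp4 and Aldh1a1, all 3 hyperplasia arrays were above both normal arrays, and for Rdh10 all 3 were below both. The share of all genes separated in this way was not counted, so nothing is read from it.

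Some of the 9 genes had like courses over the arrays, described by Pearson's r over the same 11 arrays. Aldh1a1 and Rbp4 had an r of 0.89, Aldh1a1 and Aldh1a3 0.83, and Aldh1a1 and Rarb 0.79. Aldh1a2 and Rdh10 had an r of 0.84, and Aldh1a2 had 0.73 with Crabp2 and 0.70 with Crabp1, while Crabp1 and Crabp2 had 0.19 with each other. Crabp2 was opposed to 2 of the dehydrogenases, with r of -0.87 with both Aldh1a1 and Aldh1a3. Stra6 went with none of the others closely, its r lying between -0.23 and 0.48.

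**Figure D4:**
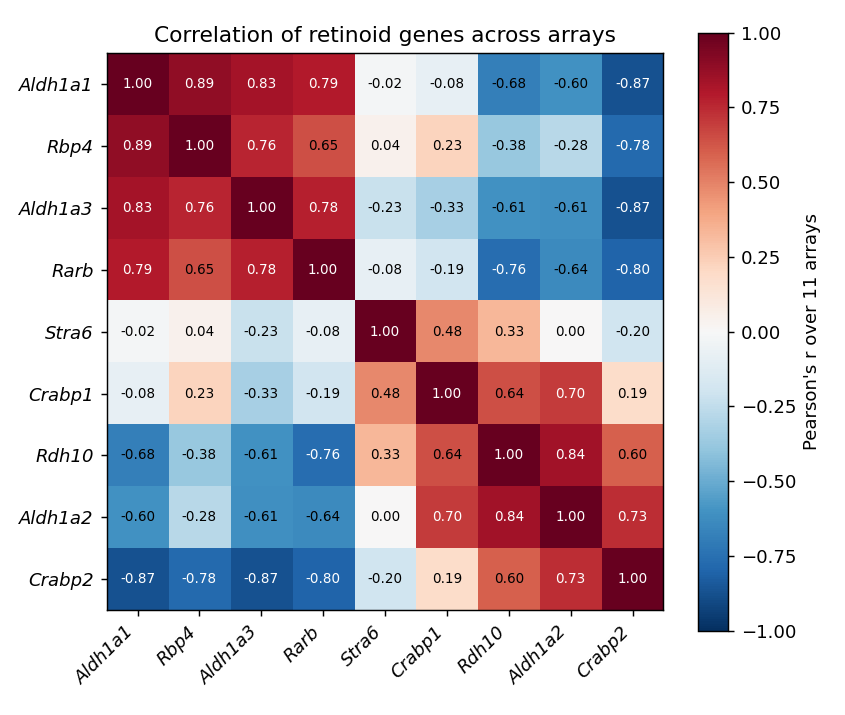
Pearson's r between each pair of the 9 genes over the 11 arrays (colour and number in each cell; red above 0, blue below). Aldh1a1, Rbp4, Aldh1a3 and Rarb form one block with r of 0.65 to 0.89, and Crabp2 is below -0.77 with each of the 4.

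Genes with courses like those of the members were sought among all genes on the same 11 arrays. The highest r with Aldh1a2 belonged to Clstn2 (0.99), Reg1 (0.99), Rnf150 (0.98), Reg3g (0.98) and Klhl30 (0.97), and the lowest to Trim56 (-0.97), Birc2 (-0.95) and Rpap2 (-0.93). Clstn2 encodes a calsyntenin, and Reg1 and Reg3g encode secreted lectins of the regenerating family. For Aldh1a1 the highest was Lpl, the lipoprotein lipase gene (0.99), for Aldh1a3 Adcy2 (0.98), for Rbp4 Pde6d (0.99), for Crabp2 Elapor1 and Emid1 (0.995 each), and for Rdh10 Cdh13 (0.97). With 11 arrays in 4 stages, such values are a description of these arrays.

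The wider pathway was described from a list of 74 further retinoid genes, of which 67 were measured. In CAFs 3 of the 67 passed the test as higher and 16 as lower, against 12% and 12.8% of all genes. The median change of the 67 was -0.09, against -0.04 over all genes. Some of the called genes were dim, among them Bco2, Rxrg and Rdh12, which averaged 4.38, 4.39 and 4.67 over the 11 arrays. The median over all genes was 5.64, and whether such low values stand above background is not known. In advanced carcinoma against normal glands none of the 67 was higher and 2, Dhrs9 and Adh7, were lower. Of all 19938 genes 777 were called higher and 341 lower in this comparison (5.61% in either direction). Nothing is read from the 2 of 67.

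Of 14 genes of retinoid uptake and binding, 1 was higher and 4 were lower in CAFs. Lpl, which releases retinol from chylomicron esters, had 10.38 and 10.49 in normal glands, 10.84, 10.85 and 10.84 in hyperplasia, 10.06, 8.86 and 10.14 in carcinoma and, at the advanced stage, 9.48, 9.40 and 9.84, a change of -1.05 ± 0.21 in CAFs (SE, adjusted p = 0.00579 in limma). All its CAF arrays were below all the others, as for Aldh1a1 and Rbp4, but the share of all genes separated in this way was not counted. Bco1 and Bco2, which cleave carotenoids, were lower, with changes of -0.40 (adjusted p = 0.0111) and -0.31 (adjusted p = 0.00321), as was Cd36, a scavenger receptor gene (change -1.03, adjusted p = 0.0455). Dgat1, which can esterify retinol, was 0.38 ± 0.07 higher (adjusted p = 0.00465).

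Of 20 further oxidoreductases of retinol and retinal, 1 was higher and 5 were lower in CAFs. Dhrs9, a retinol dehydrogenase gene, had 7.76 and 7.41 in normal glands, 7.97, 8.11 and 6.90 in hyperplasia, 6.42, 5.89 and 7.10 in carcinoma and, at the advanced stage, 5.70, 5.77 and 5.86. It was the largest change of the 67 in CAFs, at -1.50 ± 0.28 (SE, adjusted p = 0.00386 in limma), and in advanced carcinoma against normal glands it was -1.81 ± 0.40 (adjusted p = 0.0355). Rdh14 (change -0.48, adjusted p = 0.00198) and Dhrs7 (change -0.22, adjusted p = 0.0179) were lower in CAFs, as were Adh1, an alcohol dehydrogenase gene (change -1.25, adjusted p = 0.0282), and Rdh5 (change -0.42, adjusted p = 0.0466), and Rdh12 was 0.34 ± 0.10 higher (adjusted p = 0.0246).

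Of 5 genes of retinoic acid breakdown, Cyp26a1 was higher and Cyp2s1 lower in CAFs. Cyp26a1 had 3.52 and 3.54 in normal glands, 3.55, 3.51 and 3.43 in hyperplasia, 3.75, 3.96 and 3.75 in carcinoma and, at the advanced stage, 3.62, 3.91 and 3.82, a change of 0.29 ± 0.06 in CAFs (SE, adjusted p = 0.00676 in limma). Every CAF array was above every other array, but the mean over the arrays lay in the lowest 0.231% of all genes, so whether these values stand above background is not known. Cyp2s1 had a change of -0.46 ± 0.09 (adjusted p = 0.00473).

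Of 11 further nuclear receptors and partners, none was higher and 2 were lower in CAFs. Rxrg, one of the RXR partners, had a change of -0.51 ± 0.10 (SE, adjusted p = 0.00391 in limma), and Ncoa1, a coactivator gene, of -0.27 ± 0.08 (adjusted p = 0.0357). Rara, another receptor gene of the RAR family, changed by -0.06 ± 0.11 (adjusted p = 0.692), and Rxra by 0.09 ± 0.05 (adjusted p = 0.262), neither past the threshold. Of 17 genes listed as targets of retinoic acid, none was higher and 4 were lower. Hoxa5, a homeobox gene induced by retinoic acid, had a change of -0.54 ± 0.15 (adjusted p = 0.0211), and Hoxb4 of -0.27, Meis2 of -0.94 and Tbx5 of -1.04 completed the 4.

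**Figure D5:**
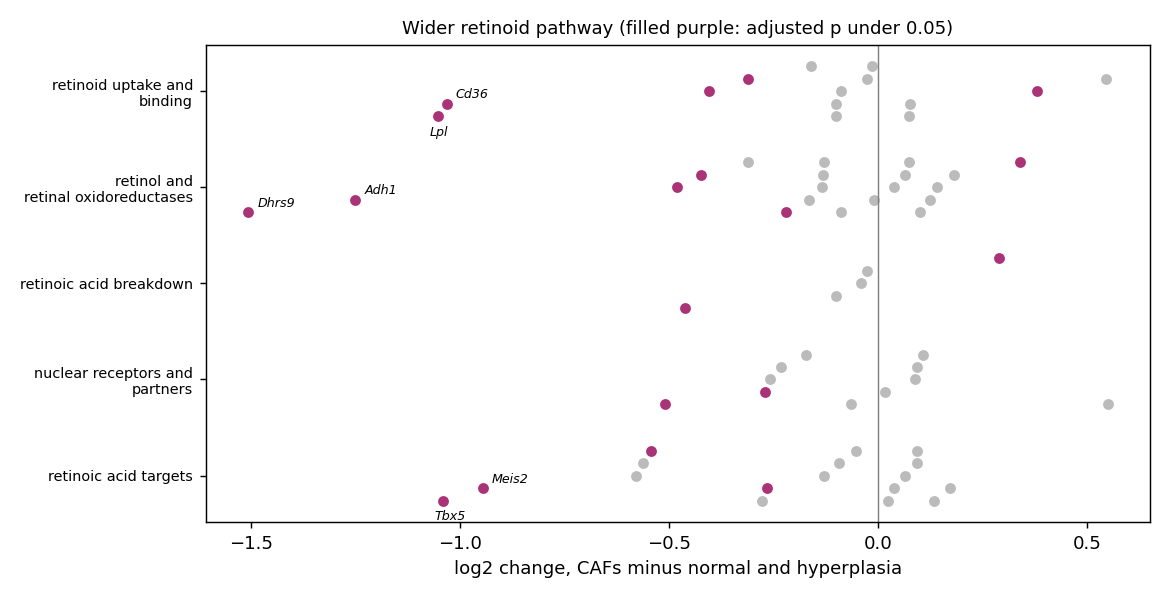
Log2 change in CAFs against normal glands and hyperplasia (horizontal axis) of 67 further retinoid genes, grouped by role (vertical axis; height within a role has no meaning). Purple points have an adjusted p under 0.05 in limma and grey points do not; 16 purple points lie left of 0 and 3 right of it.

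The promoters of the genes above were searched for the half-site of the retinoic acid receptors, since Rarb and Cyp26a1, 2 textbook targets, had changes of opposite sign in CAFs (that of Rarb not past the threshold), and since Aldh1a1 and Rbp4 had courses like each other. RefSeq windows (GRCm38.p6) from 250 bases before to 50 after each start were available for 6 of the 9 genes, all but Crabp2, Aldh1a3 and Rdh10. The half-site AGGTCA was sought on both strands, as was the variant AGTTCA known from the Rarb promoter, the variant GGGTCA with another first letter, and the variant GGTTCA that combines both changes, and 43.7% of the 32851 windows of all genes held at least 1 of them. Pairs on the same strand with 5 bases between them were found in 0.0974% of all windows. Below are the 150 bases before the start, 5′ to 3′ on the gene's strand, with half-sites in capitals; a run in capitals that starts with TGA is a half-site of the opposite strand.
Rarb (chr14:16575477-16575626, minus strand): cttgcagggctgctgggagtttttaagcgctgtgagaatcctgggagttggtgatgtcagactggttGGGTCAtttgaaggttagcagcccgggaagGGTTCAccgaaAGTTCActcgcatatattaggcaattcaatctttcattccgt
Cyp26a1 (chr19:37697658-37697807, plus strand): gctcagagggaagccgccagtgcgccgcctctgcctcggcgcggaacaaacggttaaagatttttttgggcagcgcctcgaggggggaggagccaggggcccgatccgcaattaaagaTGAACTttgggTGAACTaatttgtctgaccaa
Aldh1a1 (chr19:20601818-20601967, plus strand): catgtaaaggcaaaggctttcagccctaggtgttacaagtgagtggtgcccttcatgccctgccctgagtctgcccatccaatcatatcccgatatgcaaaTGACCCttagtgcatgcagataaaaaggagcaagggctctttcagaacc
Rbp4 (chr19:38125322-38125471, minus strand): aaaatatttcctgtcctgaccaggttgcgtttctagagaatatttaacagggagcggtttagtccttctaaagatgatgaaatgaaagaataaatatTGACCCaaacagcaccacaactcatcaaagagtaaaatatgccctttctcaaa

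Rarb and Cyp26a1 each held 1 such pair with 5 bases between its half-sites, and Rarb held another half-site further from the start. The Rarb pair is GGTTCA with AGTTCA, and AGTTCA was sought because it is known from this promoter. The Rarb match was therefore set at least in part by the choice of letters. Aldh1a1, at the second of its 2 listed starts, and Rbp4, at the first of its 2, each held 1 half-site and no pair. The other window of each held none. The windows of Aldh1a2 and Crabp1 held none of these letters, and 1 of the 4 windows of Stra6 held a single half-site. A match is a description of the sequence and no evidence that a receptor was bound there in these cells.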

How the data were processed

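Fibroblasts were profiled on 11 Affymetrix Mouse Gene 1.0 ST arrays. The deposited log2 values were normalised and summarised by the authors with the robust multi-average method (RMA) in Partek Genomics Suite 6.5; the genome build was not given in the sources used here. Of 35399 probe sets, 21789 had 1 gene symbol, 1621 several and 11989 none in the platform annotation. The brightest probe set was kept for each of 999 genes with more than 1, which left 19938 genes.

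The 4 stages were fitted together over 11 arrays in limma 3.58.1 (R 4.3.3), and a separate fit of 2 groups set CAFs against the other stages. P-values were adjusted by Benjamini-Hochberg over all 19938 genes, with a threshold of 0.05, and measure the spread between pooled cohorts. Precision is limited by the number of arrays. The steps were tested on simulated data.

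Members, lists and tests were chosen with earlier results of these data known. All 9 members are named. Of the wider list, the 12 genes with the smallest adjusted p in CAFs were eligible, and Adh7, Cd36, Adh1, Rdh5, Ncoa1, Hoxb4, Meis2, Tbx5, Rara and Rxra were added after their values were seen, as were single marker genes. Likeness names the 5 highest and 3 lowest correlations for Aldh1a2, and the highest of the 3 for other called members. Alternatives were median-centred arrays, quantile normalisation, dim genes left out, every probe set or the mean of probe sets, one-way ANOVA contrasts, the methods' threshold (unadjusted p under 0.05 and a fold over 1.5), limma-trend with robust estimates, array weights, the arrays of 2 stages only, a term for the tied arrays, a fit without them, and each array left out.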

Additional observations from a re-analysis of the deposited data

Results flagged for a closer look

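Single arrays that stood apart from their group were sought for the 9 retinoid genes and the named pathway genes, over 42 groups of 5 or 6 arrays. Chance alone sets an array apart in about 1 group in 20. Rbp4 on carcinoma D4 had 5.71, with the other 5 CAF arrays between 7.27 and 7.80. Cyp26a1 on hyperplasia D12 had 3.43, with the other 4 arrays of normal glands and hyperplasia between 3.51 and 3.55.

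Changes from normal glands that differed between 2 stages, by the limma test of that difference, were seen for 4 genes. Set against each other, the change in advanced carcinoma minus that in hyperplasia was -1.92 for Aldh1a1 (adjusted p = 0.0277), -1.14 for Aldh1a3 (adjusted p = 0.0451), 2.55 for Crabp2 (adjusted p = 0.00378) and 0.48 for Rdh10 (adjusted p = 0.0171). The change in carcinoma minus that in hyperplasia was 2.21 for Crabp2 (adjusted p = 0.0101). These are the direct comparisons of the stages given above, since the shared normal arrays drop out. Of all genes 14.5% were called in advanced carcinoma against hyperplasia and 9.25% in carcinoma against hyperplasia. The calls of Aldh1a1, Aldh1a3 and Rdh10 were lost when some single arrays were left out. With unmoderated one-way ANOVA contrasts the adjusted p was 0.0673 for Aldh1a1 and 0.0922 for Aldh1a3, while the study's own threshold used an unadjusted p.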

How the results depend on the processing

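Counts are of the 8 genes other than Aldh1a2 called in limma at an adjusted p under 0.05. In CAFs the count of 4 stayed within 1.5 times under each alternative, and the Aldh1a2 difference between advanced carcinoma and carcinoma (2.04) moved by less than 1 SD. Advanced carcinoma against normal glands gave 1 call, 5 with array weights, 5 from fits of 2 stages only, 0 without both tied arrays, 3 at the methods' threshold, and 0 to 3 with 1 array left out. Carcinoma against normal glands gave 1, and 0 with ANOVA contrasts, with 2 stages only, with a term for the tied arrays and without them, and 0 to 1 with 1 array left out. Carcinoma against hyperplasia gave 1, 2 with median-centred arrays and with dim genes left out, 4 with array weights and at the methods' threshold, 0 with 2 stages only, and 1 to 4 with 1 array left out. Advanced carcinoma against hyperplasia gave 4, 2 with ANOVA contrasts and without the tied arrays, 7 with array weights, and 1 to 7 with 1 array left out, the 7 without carcinoma D4. The calls over all 19938 genes shifted as well. Advanced carcinoma against normal glands gave 777 higher and 341 lower, 2279 and 1629 with array weights, and 1727 and 1125 with 2 stages only. Carcinoma against hyperplasia gave 974 and 871, 1260 and 1677 with array weights, and 0 and 5 with 2 stages only. Advanced carcinoma against hyperplasia gave 1698 and 1199, 3071 and 3166 with array weights, and 2681 and 2336 without carcinoma D4. No change reversed its sign as a call, and the cause of these shifts was not tested. Single-gene changes were followed in CAFs against normal glands and hyperplasia, and in advanced carcinoma against normal glands. Counted per gene and alternative, 359 were unchanged, 13 gained the threshold and 13 lost it. For a tested gene, unchanged means on the same side of the threshold. For Aldh1a2, which has no test there, it means a change that moved by less than 1 SD. No paired analysis was possible because no array number is shared between stages.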
